A study of Homo sapiens with 9 samples.

Results

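The genes described here make up the ISG15 conjugation system: ISG15, the ubiquitin-like modifier itself, the enzymes UBA7, UBE2L6, HERC5 and HERC6 that attach it to other proteins, the protease USP18 that takes it off, and ISG20, an interferon-induced exonuclease that shares the family's name but has no part in conjugation. They were taken by symbol from the deposited expression tables, and all 7 were found among the 23284 gene symbols listed, each on a single entry. The libraries are paired-end RNA-Seq of HT-29, an established human colon cancer cell line. Separate dishes were kept for 5 days in vehicle alone (DMSO, labelled 0 µM), in 5 µM or in 10 µM 5-aza-deoxy-cytidine (5-Aza), an inhibitor of DNA methyltransferases, with 3 cultures per group and 9 libraries in all. All groups are the same line, so what follows describes HT-29 and no other cells.

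ISG15 is joined to lysines of target proteins by a relay like that of ubiquitin. UBA7 (the E1) activates it, UBE2L6 (the E2, also called UBCH8) carries it, and HERC5, the main human E3 ligase, passes it on to newly made proteins. HERC6 is a close relative of HERC5 and is the main ISG15 ligase in mice. USP18 cleaves the bond and also restrains signalling at the type I interferon receptor. The genes are classical interferon-stimulated genes: interferons act through a complex that holds STAT2 and IRF9, which binds the interferon-stimulated response element in promoters. Inhibitors of DNA methylation are known to induce such genes in some cancer cells.

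Promoter sequences are shown first because the members share this known regulator. RefSeq windows on GRCh38.p14 were at hand for 5 of the 7 members, and UBA7 and USP18 had no entry. Each window holds 250 bases before and 50 after the annotated start. Windows were searched on both strands for GAAANNGAA, a short core of the interferon-stimulated response element in which N is any base, and for TTCNNNGAA, the site type bound by STAT dimers. The 250 bases before the start are printed 5′ to 3′ on the gene's strand for the 3 genes with a match and for HERC6, the neighbour of HERC5, which had none. Capitals mark matches to GAAANNGAA, a core length that was set after the windows had been seen.
ISG15, chr1:1013247-1013496, plus strand: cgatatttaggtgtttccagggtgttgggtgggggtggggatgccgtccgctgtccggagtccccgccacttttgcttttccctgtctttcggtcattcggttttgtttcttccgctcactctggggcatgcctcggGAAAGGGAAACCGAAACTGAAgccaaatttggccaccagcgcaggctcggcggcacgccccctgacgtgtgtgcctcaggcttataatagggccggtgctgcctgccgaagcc
HERC5, chr4:88456869-88457118, plus strand: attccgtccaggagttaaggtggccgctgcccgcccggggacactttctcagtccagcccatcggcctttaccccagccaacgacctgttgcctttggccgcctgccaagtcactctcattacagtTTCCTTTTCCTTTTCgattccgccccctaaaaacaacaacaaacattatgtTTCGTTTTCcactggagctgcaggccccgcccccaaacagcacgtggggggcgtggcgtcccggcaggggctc
ISG20, chr15:88638766-88639015, plus strand: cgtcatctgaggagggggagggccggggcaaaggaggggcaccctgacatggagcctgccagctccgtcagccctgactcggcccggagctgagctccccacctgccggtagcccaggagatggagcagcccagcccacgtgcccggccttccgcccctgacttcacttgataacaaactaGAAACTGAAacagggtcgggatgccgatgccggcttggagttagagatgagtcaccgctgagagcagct
HERC6, chr4:88378602-88378851, plus strand: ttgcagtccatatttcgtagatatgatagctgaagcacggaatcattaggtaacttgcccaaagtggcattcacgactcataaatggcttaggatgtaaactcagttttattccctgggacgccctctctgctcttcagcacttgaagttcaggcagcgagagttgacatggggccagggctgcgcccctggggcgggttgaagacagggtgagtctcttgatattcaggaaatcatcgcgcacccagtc

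ISG15 held 3 overlapping matches between 113 and 93 bases before its start. HERC5 held 3 matches between 124 and 65 bases before its start, all on the opposite strand, where the capitals read as the reverse complement. ISG20 held 1 match between 69 and 61 bases before its start. No match lay in the window of HERC6 or in the 2 windows of UBE2L6. Of all 35116 RefSeq promoter windows, 8.11% held GAAANNGAA. TTCNNNGAA was in none of the members' windows and in 7.66% of all windows, so no stretch matched both motifs. CpG dinucleotides, the sites that DNA methyltransferases modify, numbered 20 in the window of ISG15, 21 in HERC5, 15 in ISG20, 16 in HERC6, and 32 and 41 in the windows of UBE2L6, against a median of 14 over all windows. Methylation was not measured in these libraries.

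The libraries differed in depth and in level. The files give no read totals, and the study gives only a range over all samples. Fragments per library were estimated from the steps in low values at between 11820384 and 32313108. These are rough figures, since 69.1% of the 363 genes used to relate value to length lay within 20% of the median relation. Replicate 1 at 10 µM was the shallowest. In the control group replicate 3 had the lowest level of all 7 members, and at 10 µM replicate 1 had the lowest of all 7 and replicate 2 the highest of 6, UBA7 being the exception. Without control replicate 3, the log2 differences at 5 µM described below became 1.51 for ISG15, 0.92 for UBA7, 1.61 for UBE2L6, 4.10 for HERC5, 1.03 for HERC6, 1.23 for USP18 and 1.08 for ISG20, and the call of UBA7 alone was lost. Colon epithelial markers (9 of 9 detected) summed to between 90078600 and 108337000 FPKM in controls, 37156800 and 41746600 FPKM at 5 µM and 29355900 and 51683000 FPKM at 10 µM. KRT8, KRT18 and KRT19 made up most of this sum in controls, with means of 39381700, 32981700 and 8604950 FPKM. These 3 were called lower at 5 µM, where 2.17% of genes tested were, and KRT19, KRT20 and CDX2 at 10 µM, where 3.4% were, by the rule given below. All 9 epithelial markers had log2 differences below 0 at both doses. They ran from -1.79 for KRT19 to -0.06 for CDH1 at 5 µM. At 10 µM they ran from -1.54 for KRT19 to -0.38 for EPCAM. Markers of blood cells and fibroblasts, also 9, summed to 167673 to 181647 FPKM in controls, 723572 to 774610 FPKM at 5 µM and 256381 to 413533 FPKM at 10 µM. CD68, a lysosomal protein abundant in macrophages, made up most of this sum, with 121931 to 128554 FPKM in controls, 653377 to 690427 FPKM at 5 µM and 191711 to 344519 FPKM at 10 µM. CD14 held 35247 to 50081 FPKM over all libraries, and of the other 7 only COL1A1 exceeded 2585 FPKM. CD3E was listed at 0 in all controls, and PTPRC, which all white blood cells carry, did not exceed 983 FPKM in any library. CD68, CD3E, COL1A1, COL1A2 and PDGFRB were called higher at 5 µM, where 14.1% of genes tested were. COL1A1 was called higher at 10 µM, where 4.07% were. The calls of CD3E, COL1A2 and PDGFRB rest on low values. Their means were 0, 23 and 108 FPKM in controls and 804, 669 and 1922 FPKM at 5 µM. The part of these shifts in the results was not tested. In bulk RNA, fewer cells expressing a gene and less RNA per cell cannot be told apart.

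Levels are FPKM as deposited, which are divided by gene length, so genes can be compared with each other. These FPKM values run far above the usual range, since a library sums to between 3.692e+09 and 5.908e+09. They are used relative to each other only. A difference was called when limma's Benjamini-Hochberg adjusted p over all genes tested was at most 0.05 and the log2(FPKM + 1) difference was above 1 or below -1, and a difference of 1 is a doubling.

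The whole system was higher at 5 µM than in controls. All 7 members were called higher at 5 µM, where 14.1% of the 20051 genes tested were called higher. Differences ran from 1.12 for UBA7 to 4.30 for HERC5, with a median of 1.56 on the log2 scale, against 0.14 over all genes tested. At 10 µM only UBA7 and HERC5 were called higher than in controls, 2 of 7 members, where 4.07% of 18928 genes tested were called higher. UBE2L6 made it 3 of 7 members that were higher at an unadjusted p under 0.05, as were 11.3% of genes tested. The median of the members was 0.59 there, and that of all genes tested was -0.15. From 5 to 10 µM no member passed limma's adjusted threshold in either direction, where 4.82% of 20085 genes tested were called lower and 0.129% higher. At an unadjusted p under 0.05, 5 of the 7 members and 22% of genes tested were lower. The median of the members was -0.99, against -0.31 over all genes tested. The genes tested include many with values of 0 in some libraries. Over those above 0 in all 9 libraries the medians were -0.04, -0.23 and -0.22 in the 3 comparisons.

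**Figure D1:**
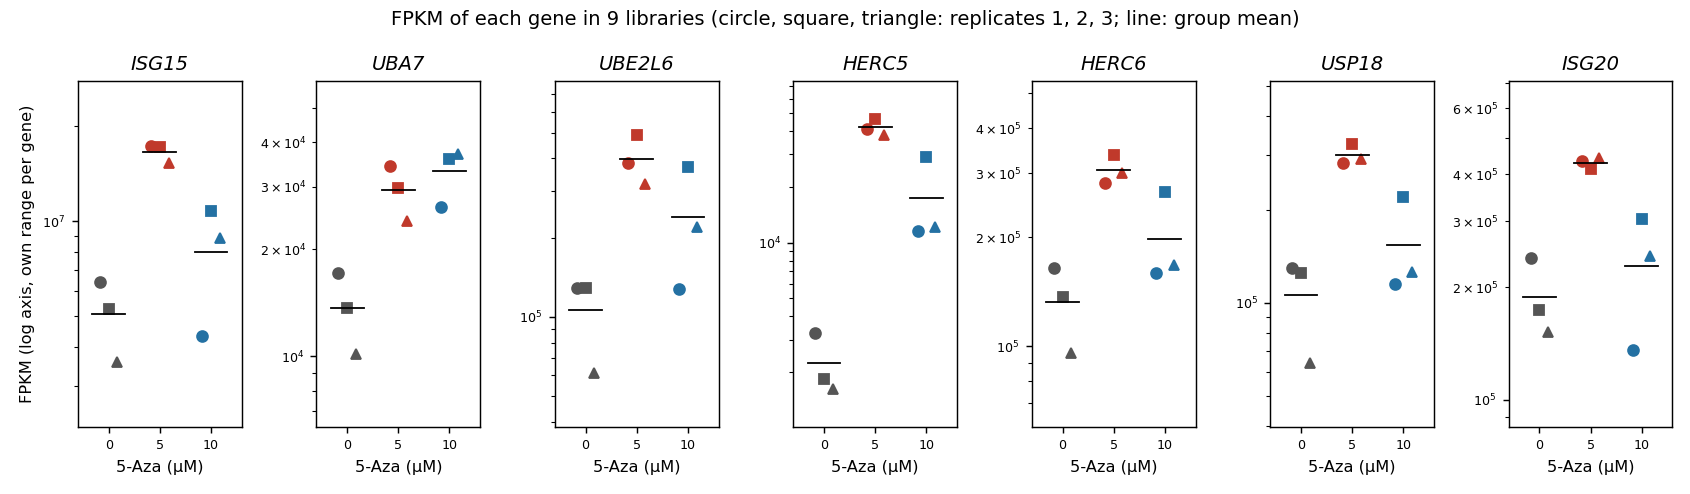
FPKM of the 7 genes (log axis, a separate range for each gene) against 5-Aza dose in µM. Symbols are single libraries (circle, square and triangle for replicates 1, 2 and 3) and lines are group means of 3. For every gene the 5 µM libraries lie above all controls, while at 10 µM only UBA7 and HERC5 are clear of the controls.

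ISG15, the modifier, was the most abundant member by far. It lies at chr1:948877-949920 on the plus strand of GRCh37, in 2 exons. The control libraries held 6418390, 5269760 and 3581150 FPKM for replicates 1, 2 and 3. At 5 µM the levels were 17324900, 17151900 and 15228800 FPKM, and at 10 µM they were 4336880, 10773800 and 8844140 FPKM. All 5 µM libraries stood above every other library, and replicate 1 at 10 µM fell inside the control range. In each library ISG15 ranked between the 99.32 and 99.94 percentile of all gene symbols, those at 0 included. The level rose by a log2 difference of 1.74 (SE 0.23, n = 3 against 3, limma adjusted p = 0.00198) at 5 µM, a ratio of means of 3.26. At 10 µM the log2 difference from controls was 0.59 (SE 0.44, limma adjusted p = 0.372). It was 0.98 without 10 µM replicate 1, 0.32 without 10 µM replicate 2 and 0.36 without control replicate 3, and was called in none of these. From 5 to 10 µM the log2 difference was -1.15 (SE 0.47, limma adjusted p = 0.187), which became -0.76 without 10 µM replicate 1. Without 10 µM replicate 2 it was -1.42 and was called (limma adjusted p = 0.0493).

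UBA7, the E1 enzyme that starts the relay, was the one member with no lower level at the higher dose. The gene lies at chr3:49842642-49851386 on the minus strand of GRCh37, in 24 exons. Its control levels were 17215, 13681 and 10135 FPKM. They were 34453, 29694 and 23987 FPKM at 5 µM and 26316, 36000 and 37239 FPKM at 10 µM. Every treated library exceeded every control library, and the treated groups overlapped each other. UBA7 rose by 1.12 on the log2 scale (SE 0.24, limma adjusted p = 0.0129) at 5 µM and by 1.30 (SE 0.27, limma adjusted p = 0.0246) at 10 µM, with ratios of means of 2.15 and 2.43. Between 5 and 10 µM the log2 difference was 0.17 (SE 0.22, limma adjusted p = 0.618). The 5 µM call was lost without control replicate 3 (0.92) or without 5 µM replicate 1 (1.00). The 10 µM call was lost without control replicate 2 or 3, or without 10 µM replicate 1 or 3, at limma adjusted p-values from 0.0520 to 0.0870 and log2 differences from 1.10 to 1.45.

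UBE2L6, the E2 enzyme, had the largest rise at 5 µM after HERC5. It lies at chr11:57319135-57335145 on the minus strand of GRCh37, in 4 exons. Controls held 128812, 128690 and 61366 FPKM. The 5 µM libraries held 384202, 490755 and 318722 FPKM, and the 10 µM libraries 127694, 369465 and 219831 FPKM. All 5 µM values lay above the controls, and at 10 µM replicate 1 was below 2 of the 3 controls. UBE2L6 rose at 5 µM by a log2 difference of 1.96 (SE 0.32, limma adjusted p = 0.00452), a ratio of means of 3.74. The log2 difference at 10 µM was 1.12 (SE 0.43, limma adjusted p = 0.113), which became 1.36 and a call (limma adjusted p = 0.0428) after median-of-ratios scaling of the libraries. It was 1.503 without 10 µM replicate 1, 0.74 without 10 µM replicate 2 and 0.76 without control replicate 3, with no call. Between the doses it was -0.84 (SE 0.37, limma adjusted p = 0.215), -0.46 without 10 µM replicate 1, and -1.23 without 10 µM replicate 2, which was called.

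HERC5, the human E3 ligase of ISG15, had the lowest level in controls and the largest change. It lies at chr4:89378270-89427314 on the plus strand of GRCh37, in 23 exons. Control libraries held 3234, 1836 and 1623 FPKM. At 5 µM they held 41200, 46692 and 38332 FPKM, and at 10 µM 11633, 28871 and 12083 FPKM. The 3 groups did not overlap. HERC5 rose by 4.30 on the log2 scale (SE 0.30, limma adjusted p = 0.000298) at 5 µM and by 2.91 (SE 0.49, limma adjusted p = 0.0146) at 10 µM. The ratios of means were 18.9 and 7.86. The control values rest on an estimated 13.8, 11.8 and 14.8 fragments, against 422.7, 455.2 and 420.7 at 5 µM, so counting error weighs most on the control side. Between the doses the log2 difference was -1.39 (SE 0.36, limma adjusted p = 0.0720), and -1.82 without 10 µM replicate 2, which was called (limma adjusted p = 0.00418). The 10 µM call against controls was lost without control replicate 2 (log2 difference 2.80, limma adjusted p = 0.0510). Without the filter on low values limma's adjusted p at 10 µM was 0.0515 for HERC5 and 0.0655 for UBA7, so neither was called.

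HERC6, which lies beside HERC5 on the same strand with 14020 bases between them, was already well expressed in controls and changed far less. The gene spans chr4:89300004-89364249 on GRCh37, in 23 exons. Its levels were 164454, 136752 and 96053 FPKM in controls. They were 281781, 337129 and 300711 FPKM at 5 µM, and 159001, 266171 and 168064 FPKM at 10 µM. The 5 µM group lay above both other groups, and replicate 1 at 10 µM was below control replicate 1. HERC6 rose by 1.24 on the log2 scale (SE 0.20, limma adjusted p = 0.00402) at 5 µM. Its log2 difference at 10 µM was 0.57 (SE 0.26, limma adjusted p = 0.165), and it was 0.71 without 10 µM replicate 1, 0.34 without 10 µM replicate 2 and 0.36 without control replicate 3, with no call. From 5 to 10 µM the log2 difference was -0.67 (SE 0.21, limma adjusted p = 0.120). Without 10 µM replicate 2 it was -0.90 (limma adjusted p = 0.00863), which passed the p but not the fold threshold.

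The level of HERC5 within each library was compared with that of HERC6, a ratio that no scaling of libraries can alter. HERC6 stood far above HERC5 throughout, and the gap narrowed with treatment. The mean log2 ratio of HERC5 to HERC6 was -5.92 ± 0.28 (SD, n = 3) in controls, -2.87 ± 0.10 at 5 µM and -3.59 ± 0.34 at 10 µM. It was 3.06 higher at 5 µM and 2.33 higher at 10 µM than in controls, and 0.73 lower at 10 than at 5 µM (-0.73). None of the 3 pairs of groups overlapped, and the 2-sided exact permutation p was 0.1 each time, the smallest that 3 against 3 can give.

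USP18, the protease that removes ISG15, rose with its substrate. The gene lies at chr22:18632937-18660164 on the plus strand of GRCh37, in 11 exons. Controls held 129939, 124721 and 63891 FPKM. Levels were 281499, 324414 and 291063 FPKM at 5 µM and 115247, 219516 and 125795 FPKM at 10 µM. The 5 µM group stood clear of both others, whereas the 10 µM and control groups overlapped. USP18 rose at 5 µM by a log2 difference of 1.56 (SE 0.27, limma adjusted p = 0.00587), a ratio of means of 2.82. The log2 difference at 10 µM was 0.54 (SE 0.34, limma adjusted p = 0.291). It was 0.72 without 10 µM replicate 1, 0.25 without 10 µM replicate 2 and 0.21 without control replicate 3, with no call. Between 5 and 10 µM it was -1.02 (SE 0.25, limma adjusted p = 0.0593), just short of the threshold, and -1.31 without 10 µM replicate 2, which was called (limma adjusted p = 0.00385). USP41, a near-identical relative, is not a symbol in these files, and reads from it could have been counted under USP18.

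ISG20, a nuclease that degrades RNA and that stands outside the conjugation relay, followed the same order of groups. It lies at chr15:89182247-89199714 on the plus strand of GRCh37, in 4 exons. The controls held 239237, 173405 and 151951 FPKM. The 5 µM libraries held 433246, 412805 and 443284 FPKM, and the 10 µM libraries 135726, 304699 and 242571 FPKM. The 5 µM values were the closest together of any member, with an SD of 3.61% of the mean, and lay above all others. ISG20 rose at 5 µM by a log2 difference of 1.22 (SE 0.17, limma adjusted p = 0.00211), a ratio of means of 2.28. At 10 µM the log2 difference was 0.22 (SE 0.31, limma adjusted p = 0.610). It was 0.56 without 10 µM replicate 1, 0.083 without control replicate 3 and 0.14 without 10 µM replicate 3, and turned to -0.026 without 10 µM replicate 2. Between 5 and 10 µM it was -0.99 (SE 0.28, limma adjusted p = 0.0921), -0.66 without 10 µM replicate 1, and -1.24 and a call without 10 µM replicate 2.

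**Figure D2:**
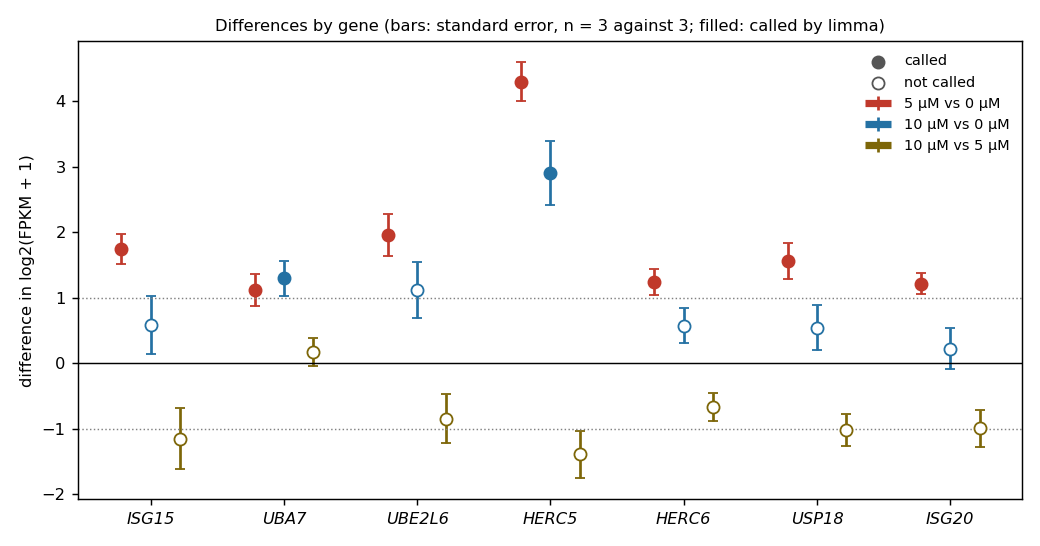
Difference in log2(FPKM + 1) for each of the 7 genes in the 3 comparisons of dose, with standard errors (n = 3 against 3). Filled points were called by limma and dotted lines mark the threshold of 1 in either direction. All 7 points for 5 against 0 µM are filled, those for 10 against 0 µM are filled for UBA7 and HERC5 only, and none is filled for 10 against 5 µM.

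Replicate values that do not overlap between groups were also counted. At 5 µM all 7 members lay wholly above controls, as did 29.4% of genes tested. At 10 µM UBA7 and HERC5 did, against 14.4% of genes tested. At 10 against 5 µM ISG15, HERC5, HERC6, USP18 and ISG20 lay wholly lower, 5 of 7 members, against 25.3% of genes tested. The exact permutation p was 0.1 in each of these cases. In a limma F test over the 3 doses, all 7 members had an adjusted p of at most 0.05, as did 35% of 20225 genes, with values from 0.000374 for HERC5 to 0.0251 for ISG15. Leaving out one 5 µM library reduced this count to 4 without replicate 1, 2 without replicate 2 and 3 without replicate 3.

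The order of the members by level was read within each group. In controls ISG15 led with a mean of 5089770 FPKM, followed by ISG20 (188198 FPKM), HERC6 (132420 FPKM), UBE2L6 (106289 FPKM) and USP18 (106184 FPKM). Neighbours among these last 4 overlapped in range. UBA7 (13677 FPKM) and HERC5 (2231 FPKM) closed the order, each clear of its neighbours. At 5 µM HERC5, with a mean of 42075 FPKM, stood above UBA7, with 29378 FPKM, and their ranges did not overlap. At 10 µM UBA7 was again above HERC5 in each of the 3 libraries, with means of 33185 and 17529 FPKM. Among the relay enzymes the lowest mean RNA level was thus that of HERC5 in controls, UBA7 at 5 µM and HERC5 at 10 µM. At 10 µM the ranges of the 2 genes overlapped. Protein levels and conjugation of ISG15 were not measured in these libraries.

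Levels were next expressed relative to ISG15 in the same library, which removes any scaling between libraries. These ratios were chosen after the values had been seen. USP18 had a log2 ratio to ISG15 of -5.61 ± 0.20 (SD, n = 3) in controls, -5.79 ± 0.13 at 5 µM and -5.66 ± 0.45 at 10 µM, and all groups overlapped. HERC5 gained on ISG15, by 2.56 at 5 µM and 2.32 at 10 µM, with no overlap with controls. In controls the ISG15 level was between 1985 and 2870 times that of HERC5. At 5 µM it was between 367 and 421 times, and at 10 µM between 373 and 732 times.

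The log2 ratio of UBA7 to ISG15 moved to either side of its control level. It was -8.53 ± 0.06 (SD, n = 3) in controls, -9.15 ± 0.17 at 5 µM and -7.83 ± 0.43 at 10 µM, and no groups overlapped. HERC6 and ISG20 lost ground at 5 µM, by log2 differences of -0.50 and -0.52 with no overlap. At 10 µM the ratio of ISG20 remained lower, with a difference of -0.37, and that of HERC6 overlapped the controls with a difference of -0.02. UBE2L6 overlapped controls at 5 µM with a difference of 0.22 and lay above them at 10 µM with a difference of 0.53. The exact permutation p was 0.1 wherever groups did not overlap and 0.2 or more elsewhere.

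**Figure D3:**
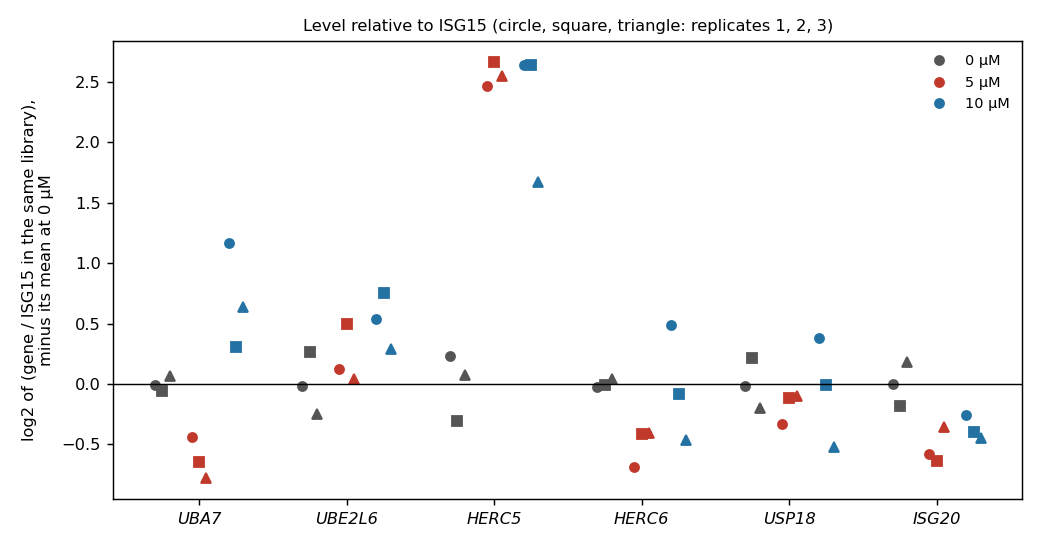
Log2 ratio of each of 6 genes to ISG15 in the same library, minus the mean of that ratio at 0 µM. Colours give the dose in µM and symbols the replicate, with 1 point per library. HERC5 lies far above the line at both doses, UBA7 lies below it at 5 µM and above it at 10 µM, and USP18 scatters around it.

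The enzymes that carry ubiquitin itself served as relatives for comparison. None of the 7 relatives tested (UBA1, UBA6, UBE2L3, HERC1, HERC2, HERC3 and HERC4) was called by limma in any of the 3 comparisons. Of all genes tested, 14.1%, 4.07% and 0.129% were called higher and 2.17%, 3.4% and 4.82% lower for 5 against 0, 10 against 0 and 10 against 5 µM. At an unadjusted p under 0.05, 1 was higher and 2 lower at 5 µM, 3 were lower at 10 µM and 1 was lower from 5 to 10 µM. Their median log2 differences were -0.09, -0.50 and -0.24 for 5 against 0, 10 against 0 and 10 against 5 µM. UBE2L3, the nearest relative of UBE2L6 and a carrier of ubiquitin, held 284633, 277821 and 241725 FPKM in controls. Its levels were 173123, 205661 and 183226 FPKM at 5 µM, and 120766, 219061 and 168911 FPKM at 10 µM. The log2 difference at 5 µM was -0.52 (SE 0.10, limma adjusted p = 0.00766), which passed the p but not the fold threshold. In RNA level the 2 carriers thus changed places. UBE2L3 was between 2.16 and 3.94 times UBE2L6 in controls, whereas at 5 µM UBE2L6 was between 1.74 and 2.39 times UBE2L3.

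The exchange was seen in every library at both doses. At 10 µM UBE2L6 was between 1.06 and 1.69 times UBE2L3. The mean log2 ratio of UBE2L6 to UBE2L3 was 2.48 higher than in controls at 5 µM and 1.82 higher at 10 µM, with no overlap between any of the groups. UBA1, the E1 enzyme of ubiquitin, was between 64.2 and 92.4 times UBA7 in controls and between 31.0 and 48.8 times at 5 µM. At 10 µM it was between 22.9 and 31.2 times. HERC3 had the highest log2 difference of the relatives at 5 µM, 0.62 (SE 0.14, limma adjusted p = 0.0165), and the lowest from 5 to 10 µM, -1.20 (SE 0.29, limma adjusted p = 0.0595).

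Other proteins that handle ISG15 were mostly not called. These are the ligases TRIM25 and ARIH1, the E2 enzyme UBE2E1, the proteases USP2, USP5, USP13, USP14 and USP21, the surface receptor subunit ITGAL, and IFNAR2, where USP18 docks. Only USP2, a ubiquitin protease reported to cleave ISG15 as well, was called among these 10. Of all genes tested, 14.1% were called higher at 5 µM and 4.07% at 10 µM, and 4.82% lower from 5 to 10 µM. Few calls in a list of this size are thus near the share over all genes. Its levels were 5632, 7220 and 6998 FPKM in controls. They rose to 75575, 75512 and 76065 FPKM at 5 µM, and were 24188, 34451 and 24919 FPKM at 10 µM. The groups did not overlap. USP2 rose by 3.52 on the log2 scale (SE 0.14, limma adjusted p = 0.000108) at 5 µM and by 2.06 (SE 0.26, limma adjusted p = 0.00663) at 10 µM, and from 5 to 10 µM it fell by 1.46 (SE 0.18, limma adjusted p = 0.00697). The median log2 differences of the list were -0.13, -0.42 and -0.30.

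Other ubiquitin-like systems (SUMO, NEDD8, UFM1, ATG12, URM1 and FAT10, with their enzymes) served as a further comparison. None of the 19 genes (18 tested at 10 µM against controls) was called in any comparison by limma, and medians were -0.16, -0.37 and -0.22. Of all genes tested, 14.1%, 4.07% and 0.129% were called higher and 2.17%, 3.4% and 4.82% lower in the 3 comparisons. At an unadjusted p under 0.05, none was higher, and 8, 9 and 2 were lower in the 3 comparisons. UBD, the gene of the ubiquitin-like modifier FAT10, stands far out in the plot of gene lists, but was listed at 0 in 7 of the 9 libraries, and in 2 of the 5 µM libraries it held 859 and 763 FPKM. Both UBD and ITGAL, which also stands out there, rest on such low values and neither was called.

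Members of the interferon pathway around the system were read from lists of known genes. Among 30 other interferon-stimulated genes, 26 were called higher at 5 µM and none lower, with a median log2 difference of 1.47. Of all genes tested, 14.1% were called higher there. IFITM1, an antiviral membrane protein, rose by 3.08 (SE 0.35, limma adjusted p = 0.00117) and RSAD2, the antiviral enzyme viperin, by 2.89 (SE 0.28, limma adjusted p = 0.000765). The other 4, IFIT5, IFITM2, DDX58 and DTX3L, had log2 differences between 0.55 and 0.93, with adjusted p from 0.0138 to 0.0386 in limma. At 10 µM IFITM1, MX2, RSAD2, IFI44L, XAF1 and EPSTI1 were called higher than in controls, 6 of 30, against 4.07% of all genes tested. The list median was 0.77. From 5 to 10 µM the median was -0.84, and all 30 differences were below 0 (28 of 30 after median-of-ratios scaling). The median over all genes tested was also below 0, at -0.31. MX2 alone was called, lower by a log2 difference of -1.06, where 4.82% of all genes tested were called lower. XAF1, a pro-apoptotic factor, had the smallest log2 difference of these 6 between the doses, -0.16 (SE 0.23), with levels of 398204, 428331 and 280074 FPKM at 5 µM and 258991, 331853 and 402318 FPKM at 10 µM.

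STAT2, a transcription factor that carries the interferon signal to the nucleus, held 219009, 224432 and 201200 FPKM in controls. It held 553778, 492692 and 476886 FPKM at 5 µM and 317389, 347193 and 271815 FPKM at 10 µM, and its groups did not overlap. STAT2 rose by 1.24 (SE 0.08, limma adjusted p = 0.000267) on the log2 scale at 5 µM. IRF9, its partner, had a log2 difference of 0.28 (SE 0.10, limma adjusted p = 0.0755) at 5 µM. IRF7, a transcription factor that is itself induced by interferon, had one of 0.59 (SE 0.12, limma adjusted p = 0.0111), which passed the p but not the fold threshold. In the study, qRT-PCR of the same RNA samples had IRF7 lower at 5 µM, a difference that did not reach its significance threshold.

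The interferon genes themselves were at or near the lower limit, apart from IFNE, the gene of interferon epsilon, which is known for its steady expression in epithelia. IFNE held 137885, 162214 and 189759 FPKM in controls, 97798, 93922 and 106693 FPKM at 5 µM and 147512, 103886 and 124392 FPKM at 10 µM. Its log2 difference at 5 µM was -0.70 (SE 0.13, limma adjusted p = 0.00656), which passed the p but not the fold threshold, and in the other 20 genes no library exceeded 12459 FPKM. Of 21 in the files, 14 were tested at 5 µM, and IFNB1, the gene of interferon beta, and IL28B, an interferon lambda gene, were called higher. That is 2 of 14, near the 14.1% of all genes tested that were called higher. IFNB1 was listed at 0 in all controls. Its values correspond to an estimated 5, 6 and 8 fragments in the 5 µM libraries and to 0, 4 and 16 at 10 µM. IL28B was also listed at 0 in all controls, with an estimated 9.2, 5.9 and 10.5 fragments at 5 µM and 4.6, 1.3 and 1.3 at 10 µM. IL28B was the only one called at 10 µM against controls (limma adjusted p = 0.00756, 9 genes tested), where 4.07% of all genes tested were called higher. None of 14 was called from 5 to 10 µM, where 1 was lower at an unadjusted p under 0.05, as were 22% of all genes tested. No fold is given for either gene, and the list medians of 4.36, 3.39 and -2.84 rest mostly on such low values.

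**Figure D4:**
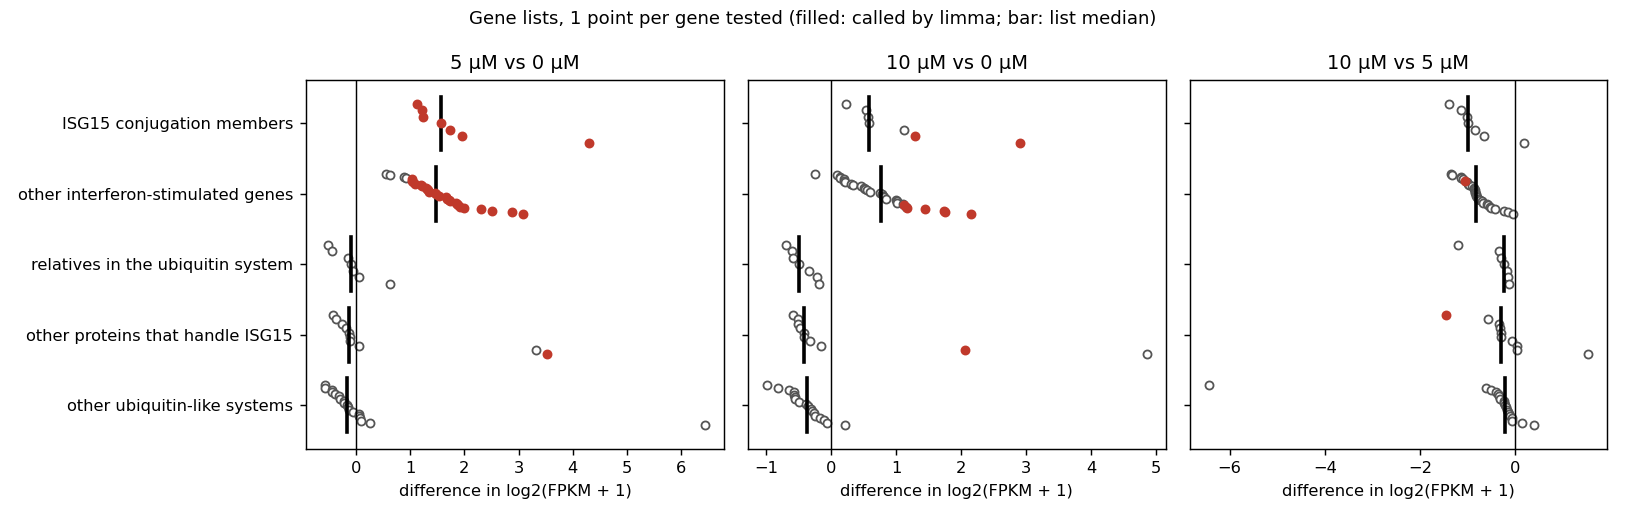
Difference in log2(FPKM + 1) for each gene of 5 lists in the 3 comparisons of dose, with 1 point per gene tested, filled where limma called it, and a bar at the list median. At 5 µM the members and the other interferon-stimulated genes lie mostly above 1 (medians 1.56 and 1.47), while the relatives and the other ubiquitin-like systems lie near 0 (medians -0.09 and -0.16).

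Members also varied together among libraries of the same dose. In the control group replicate 1 was the highest and replicate 3 the lowest for all 7 members. Replicate 3 was the lowest control for 30 of 30 other interferon-stimulated genes as well, and for 53.3% of the 15278 genes above 0 in all libraries. After median-of-ratios scaling replicate 3 was still the lowest for all 7 members and all 30 others, against 39.6% of all genes. Replicate 2 at 10 µM was the highest of its group for 6 members, for 29 of the 30 others and for 66.1% of all genes. These became 5 members, 23 of the 30 others and 34.1% of all genes after scaling. Deviations of members from their group means correlated pairwise between 0.59 and 0.97 over the 9 libraries, as a description, since the points share libraries. These correlations used levels as deposited, without median-of-ratios scaling. They were not computed for other genes, so part of them may be shared with genes at large.

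The genes whose levels followed ISG15 most closely over the 9 libraries were TK1, a thymidine kinase of dividing cells (r = 0.996), IFI27 (0.995), PARP12 (0.990), BOLA2B (0.988) and BOLA2 (0.987). These are Pearson correlations of log2(FPKM + 1), given as a description among 15278 genes, and all points share their libraries. IFI27 and PARP12 are known interferon-stimulated genes. BOLA2 and BOLA2B are near-identical copies whose reads cannot be told apart with certainty. Of the members, ISG20 came first at 0.977, which was rank 15 among all these genes. UBE2L6 (0.954, rank 70), USP18 (0.952, rank 72), HERC6 (0.946, rank 97) and HERC5 (0.877, rank 597) followed. UBA7 came last at 0.703, rank 2365, so many genes outside the system followed ISG15 more closely than HERC5 or UBA7 did.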

How the data were processed

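RNA-Seq libraries came from 9 HT-29 cultures, grouped by the sample labels. The authors prepared TruSeq RNA libraries, which do not mark strand, filtered the reads, ran TopHat against hg19 and then Cufflinks, and deposited its FPKM value for each gene. The library term behind them and the annotation version are not given in the sources used here. Since the files hold no counts, no count model was used. FPKM of repeated symbols (543 of 23284) were summed and transformed as log2(FPKM + 1). On the scale of these files the added 1 is small. HERC5, the lowest member in controls, had a log2 difference of 4.30 at 5 µM, and also with 0.1 added instead. Genes with no signal in a whole group can get large log2 differences from few fragments, which depend on the value added.

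A gene was tested when its largest FPKM reached 10 in either group. On the scale of these files 10 FPKM is far below 1 estimated fragment of HERC5. Genes resting on single fragments were therefore tested as well. Each comparison used its 6 samples in limma 3.58.1 under R 4.3.3 (lmFit, eBayes with trend), and the F test used all 9, with Benjamini-Hochberg adjustment over all genes tested. Single values were compared by 2-sided exact permutation tests. The limma step was first tested on simulated data. Other steps ran in scipy 1.17.1, numpy 2.4.6, pandas 2.3.3 and matplotlib 3.10.9. Fragments were estimated from the value of 1 fragment at 110-nucleotide microRNA genes and each gene's annotated length. They cover counting only and were not tested. Positions are canonical transcript spans on GRCh37, the same assembly as hg19. Replicates were separate cultures.

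Genes named are the 7 members, their relatives, the called genes of the lists (in full for lists under 10 genes) and the 5 genes most correlated with ISG15. ITGAL, UBD, PTPRC and the 4 uncalled interferon-stimulated genes were named after their values were seen. IRF7, IFNE and CD14 were likewise chosen. Results on 2 further lists are not reported here. The members and lists were chosen with earlier results of these data known. Alternatives were other pseudocounts, filters, thresholds and scaling, all samples in one fit, the largest entry of repeated symbols, a replicate block and leaving out each library.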

Additional observations from a re-analysis of the deposited data

How the results depend on the processing

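All 7 members kept their call at 5 µM against controls under each alternative except without control replicate 3 or without 5 µM replicate 1, where 6 were called (range 6 to 7 when single libraries were left out). All genes called rose from 3254 to 7816 with no fold threshold. At 10 µM against controls 0 members were called in limma without the filter on low values (2 with it, and 3 at an unadjusted p under 0.05), 3 after median-of-ratios scaling, and 0 to 2 when single libraries were left out. Over all genes, the 1415 calls became 759 without the filter, 2857 with no fold threshold, and 565 (without 10 µM replicate 3) to 2319 (without 10 µM replicate 2). From 5 to 10 µM 1 member, USP18, was called with a pseudocount of 1000, and between 0 and 5 when single libraries were left out, the 5 without 10 µM replicate 2. The 995 calls over all genes became 188 (without 5 µM replicate 3) to 1937 (without 10 µM replicate 2). The F test passed 4 members without the filter and 2 to 7 when single libraries were left out. ISG20 at 10 µM against controls turned from 0.22 to -0.026 without 10 µM replicate 2, and ranged up to 0.56 without other single libraries. Apart from fewer or more genes tested and fewer samples, the causes of these changes were not tested. Of 315 log2 differences of members under the alternatives, 298 kept direction and side of the thresholds, 9 lost and 7 gained a call, and 1 reversed.

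Median-of-ratios scaling raised the median log2 difference of all genes by 0.04, 0.24 and 0.20 in the 3 comparisons, and at 10 µM against controls it turned 771 higher and 644 lower calls into 1125 and 284. With a replicate block, 7, 2 and 0 members were called, as without it, and calls over all genes from 5 to 10 µM fell to 418. Samples with the same number correlated between -0.07 and 0.09 in their deviations from group means (9 pairs), and samples with different numbers between -0.16 and 0.10 (18 pairs), so the numbers were not taken as pairs.

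Depth limits the control level of HERC5, at 11.8 to 14.8 estimated fragments, and of UBA7, at 68.8 to 86.5. With 3 cultures per group a single library decides the calls at 10 µM. Promoter windows of UBA7 and USP18 were not analysed here.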
